A study of Mus musculus with 14 samples.

Results

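The PPAR, PGC-1 and ERR regulators are a set of 10 genes, chosen by name, out of the 55487 genes in the gene count table. They comprise the peroxisome proliferator-activated receptors (*Ppara*, *Ppard*, *Pparg*), their retinoid X receptor partners (*Rxra*, *Rxrg*), the PGC-1 coactivators (*Ppargc1a*, *Ppargc1b*) and the estrogen-related receptors (*Esrra*, *Esrrb*, *Esrrg*). All 10 passed the filter on low counts (CPM, a count scaled to a common library total, above 1 in at least 3 libraries), which 16915 genes passed. RNA was sequenced from the caudal intervertebral discs (IVDs) of 14 male mice, with 5 discs of a mouse pooled into 1 library. The first cohort, 3 months old, held 3 db/db mice, homozygous for a mutant leptin receptor (*Lepr*) allele, and 3 db/+ heterozygous littermates, which carry that allele on 1 chromosome and served as controls. The second cohort was C57BL/6J. It held 4 STZ-HFD mice, fed a high-fat diet (80% of calories from fat in the labels, a lower share in the published methods) for 4 to 6 weeks, injected once with streptozocin at 100 mg/kg and kept on the diet for 12 more weeks, and 4 Con+Veh mice given chow and the injection buffer, which the labels call wild-type. Every comparison set diabetic mice against the controls of their own cohort, so the group means of the comparisons shared no library. The spread between mice was estimated from both cohorts together. Cohort, age and treatment schedule cannot be told apart from the model when values are set side by side.

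PPARs are nuclear receptors that bind DNA as partners of RXR and are switched by fatty acids and their derivatives. PPARα and PPARδ drive fatty acid oxidation genes, and PPARγ drives adipocyte differentiation and lipid storage. PGC-1α and PGC-1β are coactivators that PPARs and ERRs recruit to genes of mitochondrial biogenesis and oxidative metabolism, a system best known from muscle, heart and brown fat, whereas the disc is a sparsely vascularised tissue that relies largely on glycolysis.

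Total counts ranged from 16076908 to 58943169 per library. Ribosomal RNA took 28.1 to 39.7% of them in the db cohort and 44.4 to 60.2% in the other, which left 8945906 to 35031712 counts. Before TMM scaling of the totals, which the CPM values given here include, 3 counts corresponded to 0.0509 to 0.187 CPM. That limit covers counting error only. Cartilage and annulus markers (8 genes) summed to 13774 to 24339 CPM in db/+, 6186 to 15224 in db/db, 1638 to 3798 in Con+Veh and 736.6 to 1496 in STZ-HFD. Nucleus pulposus and notochord markers (7 genes) summed to 113.8 to 636.7, 167.1 to 294.4, 168.3 to 1289 and 224.5 to 745.7 CPM in the same order. Of that list, *Noto* and *Shh* were at 0 in some libraries of every group. STZ-HFD replicate 1 stood apart, with the lowest total count, a TMM scaling factor of 1.52 against 0.696 to 0.745 in the rest of its group, and a library weight of 0.379. Without it *Esrrg* was still the regulator called in STZ-HFD (log2 fold change 1.28, limma adjusted p = 0.0296). The Con+Veh libraries also differed among themselves. Replicates 1 and 2 had weights of 0.275 and 0.462, and endothelial markers (4 genes) at 159.5 and 193.6 CPM. Replicates 3 and 4 had weights of 3.05 and 1.81, and endothelial markers at 822.4 and 818.1 CPM. Fold changes in STZ-HFD therefore rest more on Con+Veh replicates 3 and 4. Markers of other tissues were also present. Skeletal muscle markers (13 genes) summed to 5453 to 10153 CPM in db/+, 3523 to 6007 in db/db, 9702 to 13706 in Con+Veh and 10394 to 27731 in STZ-HFD, slow muscle markers (6 genes) to 227.6 to 668.5, 357.2 to 517.5, 550.3 to 1035 and 1095 to 2326 CPM, and adipocyte markers (8 genes) to 208.3 to 424.4, 359.2 to 650.8, 391.1 to 938.4 and 838 to 1029 CPM in the same order. Every STZ-HFD library lay above every Con+Veh library for the slow muscle sum. None of the muscle or adipocyte markers was at 0 in any library. The most abundant muscle markers, *Acta1*, *Myh1* and *Tnnt3*, had group means of 1514 to 4524, 617.6 to 4334 and 556.2 to 3404 CPM, each highest in STZ-HFD and lowest in db/db. The most abundant adipocyte markers, *Cfd*, *Fabp4* and *Plin1*, had group means of 141.1 to 505.9, 35.7 to 170.8 and 24.9 to 91.0 CPM. Since the discs were sequenced whole, fewer cells of a type and less RNA per cell cannot be told apart.

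Per kilobase of exon, the scale on which genes can be compared, *Rxra* was the most abundant of the 10 regulators in every group, at 8.87 ± 0.353 CPM per kb in db/+ (SD, n = 3), 6.47 ± 1.85 in db/db (n = 3), 7.20 ± 1.73 in Con+Veh (n = 4) and 6.32 ± 2.35 in STZ-HFD (n = 4). *Ppard* came next in every group but STZ-HFD, at 7.37 ± 1.40 CPM per kb in db/+. *Ppara* and *Esrrb* took the lowest ranks in every group, all at means under 1 CPM per kb (*Ppara* at 0.806 ± 0.161 and *Esrrb* at 0.937 ± 0.291 in STZ-HFD). In STZ-HFD, *Ppargc1a* ranked 3 at 4.28 ± 1.14 CPM per kb, against 5 in Con+Veh and 6 in both db groups, and *Ppard* ranked 6 at 2.94 ± 1.08 CPM per kb.

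**Figure D1:**
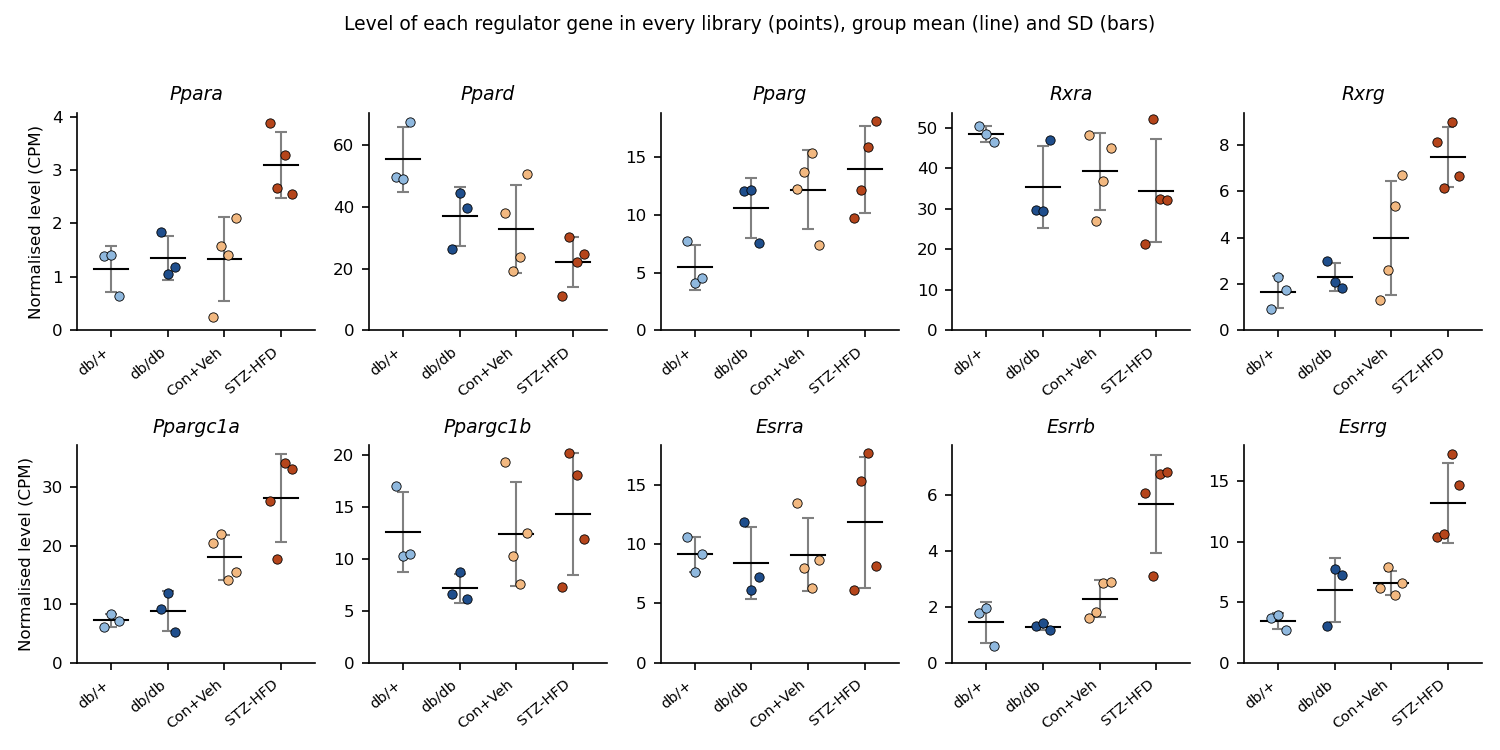
Normalised level in CPM (y axis, linear from 0) of each regulator gene in the 4 groups (x axis), with 1 point per library, the group mean as a line and the SD as bars. All 4 STZ-HFD points lie above all 4 Con+Veh points for *Ppara*, *Esrrb* and *Esrrg*, and all 3 db/db points lie below all 3 db/+ points for *Ppard* and *Ppargc1b*.

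In STZ-HFD IVDs, 1 of the 10 regulators was called, *Esrrg*, which was higher (limma, with p adjusted by Benjamini-Hochberg over all genes tested and under 0.05, and a change on the log2 scale no smaller than 1 in size), against 2.61% of all genes tested and 1.3% called higher. In db/db IVDs, limma called 0 of 10, against 1.66% of all genes tested, and edgeR's quasi-likelihood test and DESeq2 also called 0. At an unadjusted p under 0.05, 4 regulators passed in STZ-HFD (17.9% of all genes) and 2 in db/db (21.1%). The 10 had a median log2 fold change of 0.66 in STZ-HFD, where 8 were above 0 (47.2% of all genes). In db/db the median was 0.10 and 5 were above 0 (47.3% of all genes), while the median of all genes tested was -0.04 in both comparisons. STZ-HFD and Con+Veh libraries did not overlap for 3 regulators, all higher (1.97% of all genes were higher without overlap), and db/db and db/+ libraries did not overlap for 2, both lower (11.7% of all genes were lower without overlap). The test of the difference between the models called 0 of 10, against 1.77% of all genes, with 1 regulator, *Ppargc1b*, at an unadjusted p under 0.05 (17.3% of all genes). These p-values set a change against the spread between mice, at 3 or 4 per group, estimated from both cohorts in a single fit of all 14 libraries. Each model was seen in 1 cohort only, so spread between cohorts was not measured. Log2 fold changes given here are limma estimates that weight each library by its quality. They can differ from the ratio of the unweighted means printed beside them. For *Esrrg* in STZ-HFD that ratio was 2.01, against a limma fold change of 2.33 (not on the log2 scale).

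**Figure D2:**
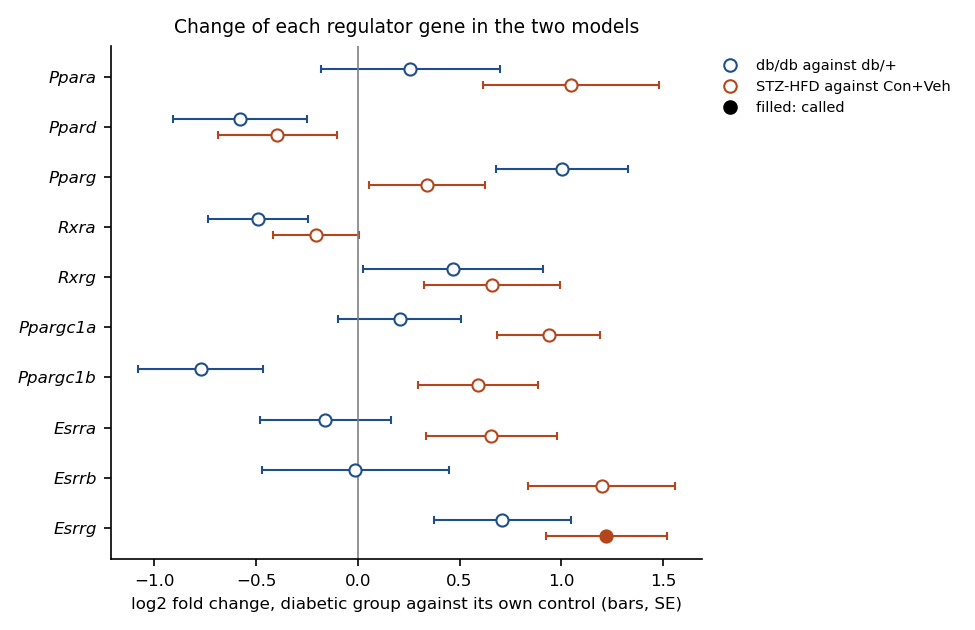
Log2 fold change (x axis) of each regulator gene (y axis) in db/db against db/+ (blue) and STZ-HFD against Con+Veh (orange), with SE bars and filled points for called genes. *Esrrg* in STZ-HFD is the filled point, and the points of *Ppargc1b* lie at -0.77 (db/db) and 0.59 (STZ-HFD).

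The ERRs are orphan receptors, so called because no natural ligand is established for them, and they depend on PGC-1 coactivators for activity. *Esrrg* (ENSMUSG00000026610, chromosome 1 from 187608791 to 188214885, plus strand, GRCm38), the ERR known from oxidative muscle and heart, was at 6.22, 7.92, 5.56 and 6.59 CPM in the Con+Veh libraries and 10.4, 10.6, 17.3 and 14.7 CPM in the STZ-HFD libraries. Every STZ-HFD library lay above every Con+Veh library. The unweighted mean of *Esrrg* rose from 6.57 ± 0.991 to 13.2 ± 3.33 CPM (SD, n = 4). Its weighted log2 fold change was 1.22 (SE 0.30, limma adjusted p = 0.0321). The call was lost with edgeR's quasi-likelihood test (adjusted p = 0.202) and DESeq2 (adjusted p = 0.0732), and when Con+Veh replicate 3 (adjusted p = 0.412), Con+Veh replicate 4 (0.174), STZ-HFD replicate 3 (0.308) or STZ-HFD replicate 4 (0.131) was left out of the limma fit, with log2 fold changes of 1.04 to 1.29 over all libraries left out. In the db cohort, *Esrrg* was at 3.71, 3.96 and 2.66 CPM in db/+ and 3.00, 7.77 and 7.25 CPM in db/db. A single db/db library lay within the db/+ range and the others well above it, and the log2 fold change of 0.71 did not pass (SE 0.34, limma adjusted p = 0.237).

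*Esrrb* (ENSMUSG00000021255, chromosome 12 from 86361117 to 86521628, plus strand), the ERR known from pluripotent cells and the placenta, was at 1.59, 1.82, 2.85 and 2.86 CPM in Con+Veh and 6.05, 3.08, 6.73 and 6.80 CPM in STZ-HFD. These libraries did not overlap either, and 3 of the 4 STZ-HFD libraries exceeded the highest Con+Veh library by a wide margin. Its log2 fold change, close to that of *Esrrg*, was 1.20, which did not pass over all genes (SE 0.36, limma adjusted p = 0.0774). It passed when STZ-HFD replicate 2, the lowest of its group, was left out (log2 fold change 1.37, adjusted p = 0.0335). The db/db level was 1.28 ± 0.122 CPM against 1.43 ± 0.724 in db/+ (n = 3), a log2 fold change of -0.01 with a 95% interval of -0.98 to 0.95, whose sign turned under other scalings.

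*Esrra* (ENSMUSG00000024955, chromosome 19 from 6910977 to 6921813, minus strand), the most abundant ERR per kilobase in every group, was at 9.14 ± 1.46 CPM in db/+, 8.43 ± 3.07 in db/db, 9.14 ± 3.10 in Con+Veh and 11.9 ± 5.57 in STZ-HFD. Neither change passed, with log2 fold changes of -0.16 in db/db (adjusted p = 0.814) and 0.66 in STZ-HFD (limma adjusted p = 0.297). The STZ-HFD libraries fell into a pair at 15.3 and 17.8 CPM and a pair at 6.13 and 8.19 CPM, the latter within or below the Con+Veh range. Its exons overlap those of *Trmt112* on the other strand, which had 45 to 214 counts, and because the strand setting of the counting is not stated the *Esrra* values are uncertain to that extent.

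The coactivator gene *Ppargc1a* (ENSMUSG00000029167, chromosome 5 from 51454250 to 51567726, minus strand), which encodes PGC-1α, was at 20.6, 22.1, 14.1 and 15.4 CPM in Con+Veh and 27.6, 17.8, 34.2 and 33.1 CPM in STZ-HFD. STZ-HFD replicate 2 lay within the Con+Veh range and the other 3 above it. The log2 fold change was 0.94 (SE 0.25, limma adjusted p = 0.0502), and without that library it was 1.09 (adjusted p = 0.0225), which would have been called. In the db cohort *Ppargc1a* was at 6.10, 8.37 and 7.19 CPM in db/+ and 9.16, 12.0 and 5.25 CPM in db/db, which is 0.21 on the log2 scale with a 95% interval of -0.43 to 0.84 (adjusted p = 0.735). The db/db libraries spread to both sides of the db/+ range, and the sign turned when the trend of fold change with GC content was removed (-0.07). All 8 libraries of the second cohort lay above all 6 of the first, an order in which cohort, age, strain and diet cannot be told apart.

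*Ppargc1b* (ENSMUSG00000033871), which encodes PGC-1β, lay lower in db/db. It was at 17.0, 10.3 and 10.4 CPM in db/+ and 6.60, 8.72 and 6.13 CPM in db/db. No db/db library reached the lowest db/+ library, yet the log2 fold change of -0.77 did not pass (SE 0.31, limma adjusted p = 0.163). In STZ-HFD the log2 fold change was 0.59 (SE 0.29, adjusted p = 0.302), with libraries at 7.28 to 20.2 CPM against 7.62 to 19.3 in Con+Veh, ranges that nearly coincide. The difference between the models was 1.36 on the log2 scale (SE 0.42, unadjusted p = 0.00506, adjusted p = 0.103), the lowest p of the 10 regulators in that test. Across all genes, fold change fell with GC content in db/db (Spearman rho across 16899 genes, which are not independent replicates, -0.43) and little in STZ-HFD (-0.08). *Ppargc1b*, at 57.8% GC, moved from -0.77 to -0.44 in db/db when that trend was removed.

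The balance of the PGC-1 coactivators was also read as a ratio within each library, 1 of 4 ratios examined and chosen after these values were known. In counts, *Ppargc1a* over *Ppargc1b* was 0.36, 0.81 and 0.69 in db/+ and 1.39, 1.37 and 0.86 in db/db. The db/db ratios all exceeded the db/+ ratios, a log2 difference of 1.01 (exact permutation test, two-sided p = 0.10, the smallest that 3 against 3 allows, and adjusted p = 0.267 over 4 ratios in both models). In the second cohort the ratio ran from 1.06 to 2.15 in Con+Veh and from 0.88 to 3.80 in STZ-HFD, with overlap. A further member of the coactivator family outside the 10, *Pprc1*, was lower in db/db without overlap (11.1 ± 0.784 against 18.5 ± 2.18 CPM, log2 fold change -0.72, limma adjusted p = 0.075) but did not pass.

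Among the PPARs, *Ppara* (ENSMUSG00000022383, chromosome 15 from 85734983 to 85802819, plus strand) was at 0.243, 1.57, 1.40 and 2.11 CPM in Con+Veh and 3.88, 2.67, 3.27 and 2.54 CPM in STZ-HFD. The groups did not overlap, and the lowest Con+Veh value rested on 9 counts. The log2 fold change was 1.05 (SE 0.43, limma adjusted p = 0.205) and did not pass. In db/db *Ppara* was at 1.36 ± 0.415 CPM against 1.15 ± 0.430 in db/+ (n = 3), with the log2 difference at 0.26 and its 95% interval from -0.67 to 1.19.

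*Ppard* (ENSMUSG00000002250, chromosome 17 from 28232700 to 28301474, plus strand), the broadly expressed PPAR, was lower in both diabetic groups than in their controls without passing either test. It was at 49.5, 49.1 and 67.6 CPM in db/+ and 26.3, 44.6 and 39.7 CPM in db/db. All db/db libraries lay below all db/+ libraries, with a log2 fold change of -0.58 (SE 0.33, adjusted p = 0.324). In STZ-HFD it was at 22.1 ± 8.08 CPM against 32.9 ± 14.3 in Con+Veh (n = 4), a log2 fold change of -0.40 (SE 0.29, limma adjusted p = 0.521), and the groups overlapped.

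*Pparg* (ENSMUSG00000000440, chromosome 6 from 115360951 to 115490399, plus strand), the adipogenic receptor, was at 7.71, 4.13 and 4.58 CPM in db/+ and 12.1, 12.1 and 7.61 CPM in db/db. The lowest db/db library fell just under the highest db/+ library. The log2 fold change of 1.00 had the lowest p of the 10 regulators in db/db but did not pass (SE 0.33, unadjusted p = 0.00666, limma adjusted p = 0.101). In the second cohort *Pparg* was already at 12.2 ± 3.46 CPM in Con+Veh and at 13.98 ± 3.76 in STZ-HFD (n = 4), a log2 fold change of 0.34 (SE 0.29, adjusted p = 0.586). Relative to *Ppard*, *Pparg* was at 0.16, 0.08 and 0.07 counts per count in db/+ and 0.46, 0.27 and 0.19 in db/db. These ratios did not overlap, and their log2 difference was 1.58 (exact permutation test, two-sided p = 0.10, adjusted p = 0.267).

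*Pparg* is transcribed from separate start sites. The distal starts give transcripts for a 475-residue protein, known as PPARγ1, and a start further downstream gives *Pparg*-201, for a 505-residue protein with a longer N-terminal end, PPARγ2, which is known as the adipocyte form. The sequences upstream of a start of each kind are shown because they precede the starts of a PPARγ1 and of the PPARγ2 transcript whose levels are given next. They are from RefSeq on GRCm38.p6, plus strand, chr6:115362099-115362291 (193 bases, 66.8% GC, upstream of *Pparg*-204) and chr6:115421816-115422065 (250 bases, 40.8% GC, upstream of *Pparg*-201). Neither printed stretch holds the PPAR and RXR half-site AGGTCA on either strand, so no base is in capitals. Other *Pparg* windows do hold it. The RefSeq window chr6:115360894-115361143 has its first base at -28 from the transcript start. In the 250-base window chr6:115362099-115362348, whose opening 193 bases are the first printed stretch, it lies at -9, beyond the printed end. For comparison, 14.02% of 32851 RefSeq promoters of 250 bases hold it and their median GC was 52.4%. Of the 10 regulators, 9 matched the promoter table, with 17 windows of which 4 held AGGTCA.
Pparg-204 upstream: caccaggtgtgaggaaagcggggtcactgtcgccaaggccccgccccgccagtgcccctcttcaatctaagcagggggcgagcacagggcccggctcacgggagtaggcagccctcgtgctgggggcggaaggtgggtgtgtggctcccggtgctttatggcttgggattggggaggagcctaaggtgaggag
Pparg-201 upstream: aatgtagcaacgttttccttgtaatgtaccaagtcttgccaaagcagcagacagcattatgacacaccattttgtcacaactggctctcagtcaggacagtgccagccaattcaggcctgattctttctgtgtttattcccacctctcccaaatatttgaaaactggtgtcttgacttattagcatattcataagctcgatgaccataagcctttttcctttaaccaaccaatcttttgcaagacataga

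In the transcript table of estimated counts, *Pparg*-201 was at 9.82, 14.3 and 3.27 estimated counts in db/+ and 178.8, 102.6 and 43.1 in db/db. The groups did not overlap. As estimated CPM of the transcript table, its mean was 1.19 ± 0.731 in db/+ and 12.6 ± 8.34 in db/db (SD, n = 3; exact permutation test, two-sided p = 0.10, the smallest possible, and adjusted p = 0.457 over 5 transcripts in both models). *Pparg*-202, a PPARγ1 transcript, was at 9.17 ± 1.35 CPM in db/+ and 8.99 ± 2.83 in db/db, with overlap. *Pparg*-204, the other PPARγ1 transcript, was at 4.31, 0 and 0 CPM in db/+ and 6.80, 6.21 and 3.78 in db/db, also with overlap (exact permutation p = 0.20, adjusted p = 0.457). *Pparg*-201 took 9.75 ± 7.51% of the *Pparg* estimated counts in db/+ and 41.8 ± 18.1% in db/db, again without overlap (exact permutation p = 0.10, adjusted p = 0.25). In STZ-HFD *Pparg*-201 was at 6.39 ± 2.62 CPM against 4.25 ± 3.52 in Con+Veh (n = 4), with overlap (exact permutation p = 0.371). The assignment among transcripts from the distal starts was unstable, with *Pparg*-202 at 0 in Con+Veh replicates 1 and 3. In replicate 3 *Pparg*-204, which encodes the same protein length, took 65.2% of the *Pparg* estimated counts. In replicate 1 *Pparg*-204 took 4.41% and *Pparg*-206, annotated with 96 residues, took 59.0%.

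**Figure D3:**
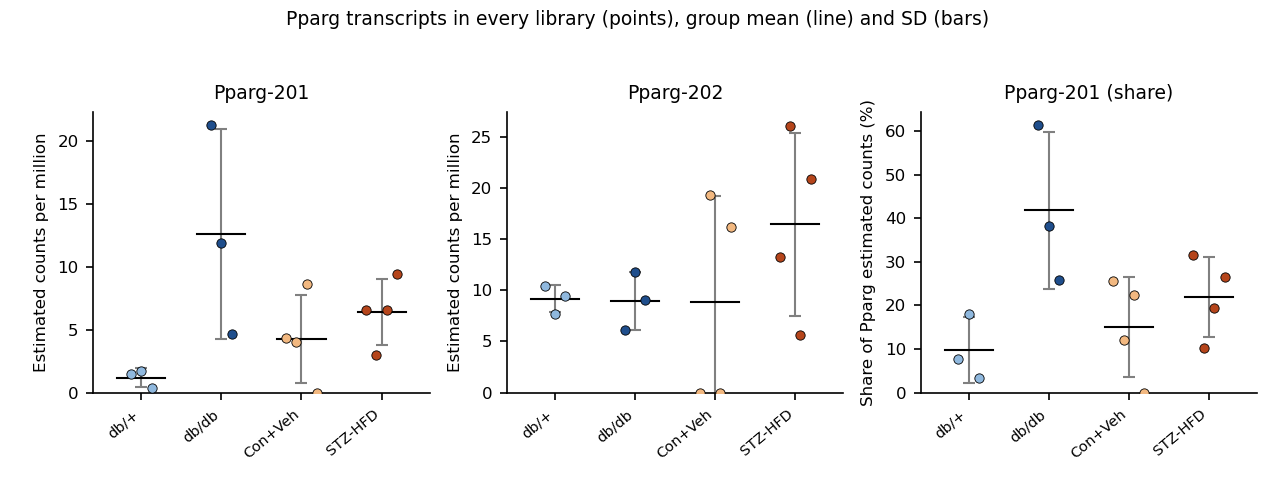
*Pparg*-201 and *Pparg*-202 in estimated CPM and the share of *Pparg* estimated counts from *Pparg*-201 in percent (y axes, linear from 0, where bars are cut), by group (x axis), with 1 point per library, the mean as a line and the SD as bars. The db/db points for *Pparg*-201 lie above all db/+ points, while those for *Pparg*-202 overlap.

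For *Ppargc1a*, the transcripts used here that begin at the distal start (*Ppargc1a*-202 and *Ppargc1a*-204) were at 0 in 12 and in all 14 libraries. Among the others, *Ppargc1a*-203, for the 797-residue protein, took 30.3 ± 2.33% of the estimated counts in db/+ and 72.7 ± 24.0% in db/db (exact permutation p = 0.10, adjusted p = 0.25, no overlap), but in db/db replicate 3 it took all of only 55.5 estimated counts, and *Ppargc1a*-201 is not among the transcripts used here.

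The RXR partner *Rxra* (ENSMUSG00000015846, chromosome 2 from 27676440 to 27762957, plus strand) was at 50.4, 48.5 and 46.5 CPM in db/+ and 29.6, 29.4 and 47.0 CPM in db/db. A pair of db/db libraries stood well below db/+ and the other inside its range, with a log2 fold change of -0.49 (SE 0.25, adjusted p = 0.26). That value shrank to -0.09 when the GC trend was removed. In STZ-HFD *Rxra* was at 34.5 ± 12.8 CPM against 39.3 ± 9.47 (n = 4), a log2 fold change of -0.21 (limma adjusted p = 0.668).

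*Rxrg* (ENSMUSG00000015843, chromosome 1 from 167598384 to 167639623, plus strand), the RXR known from skeletal muscle and the nervous system, was at 1.32, 2.62, 5.38 and 6.70 CPM in Con+Veh and 8.14, 6.16, 8.99 and 6.68 CPM in STZ-HFD. The STZ-HFD libraries were tightly grouped at the top of a wide Con+Veh range, with a log2 fold change of 0.66 (SE 0.33, limma adjusted p = 0.312). In the db cohort it was at 2.30 ± 0.599 CPM in db/db and 1.66 ± 0.678 in db/+ (n = 3), a log2 fold change of 0.47 (adjusted p = 0.578). The ratio of *Rxrg* to *Rxra* in STZ-HFD exceeded that in Con+Veh by 1.37 on the log2 scale (exact permutation test, two-sided p = 0.0857, adjusted p = 0.267).

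The wider pathway was read through gene lists drawn up for this purpose, with earlier results of these data known. Means and SDs of these genes are unweighted, and their log2 fold changes are the weighted limma estimates. Of 28 listed PPARα and PPARδ targets, 24 were tested. In STZ-HFD, 9 rose and 0 fell, against 1.3% of all genes called higher. The list median was 1.14 and 22 of 24 were above 0 (47.2% of all genes). For 11 the groups did not overlap, all higher (1.97% of all genes). *Fabp3*, a muscle and heart fatty acid-binding protein, rose from 4.70 ± 1.27 to 46.9 ± 17.2 CPM (log2 fold change 3.26). *Pdk4*, the kinase that turns off pyruvate dehydrogenase, rose from 16.1 ± 4.86 to 116.5 ± 38.0 CPM (2.80), *Ucp3*, a muscle uncoupling protein, from 2.01 ± 0.713 to 9.24 ± 4.62 CPM (1.83), and *Acadl*, an acyl-CoA dehydrogenase of β-oxidation, from 7.27 ± 3.87 to 25.8 ± 11.2 CPM (1.83). In db/db, where 1.23% of all genes were called higher, 1 of the 24 rose, the lipid droplet coat gene *Plin2*, from 12.8 ± 1.61 to 25.6 ± 2.33 CPM (log2 fold change 1.01, limma adjusted p = 0.0285), and the list median was 0.31. The difference between the models passed for 2 of the 24, *Pdk4* (2.11 on the log2 scale, adjusted p = 0.0251) and *Fabp3* (2.28, adjusted p = 0.0258), both larger in STZ-HFD.

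Some PPARγ targets rose in each model. Of 15 tested from 16 listed, 6 rose and 0 fell in db/db, against 1.23% of all genes called higher. The list median was 1.33, and 11 were without overlap, all higher (14.1% of all genes were higher without overlap). *Cd36*, a fatty acid translocase, rose from 9.17 ± 2.34 to 40.5 ± 5.16 CPM (log2 fold change 2.16, limma adjusted p = 0.00784), and *Lpl*, lipoprotein lipase, from 80.6 ± 38.9 to 337.7 ± 115.2 CPM (2.10). The droplet coat gene *Plin1* rose from 24.9 ± 1.68 to 91.0 ± 53.5 CPM (1.73), and *Adipoq*, which encodes adiponectin, from 5.97 ± 1.40 to 18.8 ± 1.58 CPM (1.67). Of the 16 listed genes, 5 are also on the adipocyte marker list, as are 3 of the 6 that rose. In STZ-HFD 3 of the 15 rose and 0 fell, against 1.3% of all genes called higher. None of these 3 is on the adipocyte list. They were *Pck1*, for a gluconeogenic and glyceroneogenic enzyme, from 4.03 ± 1.20 to 14.2 ± 1.61 CPM (log2 fold change 1.82), *Slc2a4*, for the insulin-responsive glucose transporter, from 33.6 ± 7.96 to 70.6 ± 29.3 CPM (1.30), and *Cd36*, from 30.6 ± 11.2 to 61.2 ± 27.5 CPM (1.12). The STZ-HFD list median was 0.76. The difference between the models passed for *Slc2a4* alone (1.85 on the log2 scale, adjusted p = 0.0341).

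Of 22 ERR and PGC-1 targets, all tested, 4 rose and 0 fell in STZ-HFD, where 1.3% of all genes were called higher. In db/db 0 passed and 4 were at an unadjusted p under 0.05, against 21.1% of all genes. In STZ-HFD the list median was 0.88 and 20 of 22 were above 0. *Slc25a4*, for the muscle ADP/ATP carrier, rose from 406.6 ± 272.3 to 1011 ± 512 CPM (log2 fold change 1.85), and *Ckmt2*, mitochondrial creatine kinase of striated muscle, from 12.3 ± 3.72 to 33.7 ± 9.74 CPM (1.70). The complex I gene *Ndufb5* rose from 34.3 ± 29.4 to 69.4 ± 31.0 CPM (1.57) and *Perm1*, a muscle cofactor induced by PGC-1 and ERR, from 18.1 ± 4.67 to 33.7 CPM, with 24.4 to 41.4 CPM in single libraries (1.28). The db/db list median was 0.07. In db/db, *Ndufb5* was at 32.6 ± 9.51 CPM against 12.2 ± 1.29 in db/+ (n = 3), without overlap (log2 fold change 1.36, limma adjusted p = 0.0732), and did not pass. Over the 3 target lists, 16 of 61 tested genes rose in STZ-HFD and 7 in db/db, against 1.3% and 1.23% of all genes. The quasi-likelihood test of edgeR called 3 and 0 of these targets. Leaving out Con+Veh replicate 3, Con+Veh replicate 4 or STZ-HFD replicate 3 left 2 called in STZ-HFD, and leaving out STZ-HFD replicate 4 left 9. In db/db, 1 was called without db/+ replicate 2, db/+ replicate 3 or db/db replicate 2, 2 without db/db replicate 1 and 3 without db/db replicate 3.

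**Figure D4:**
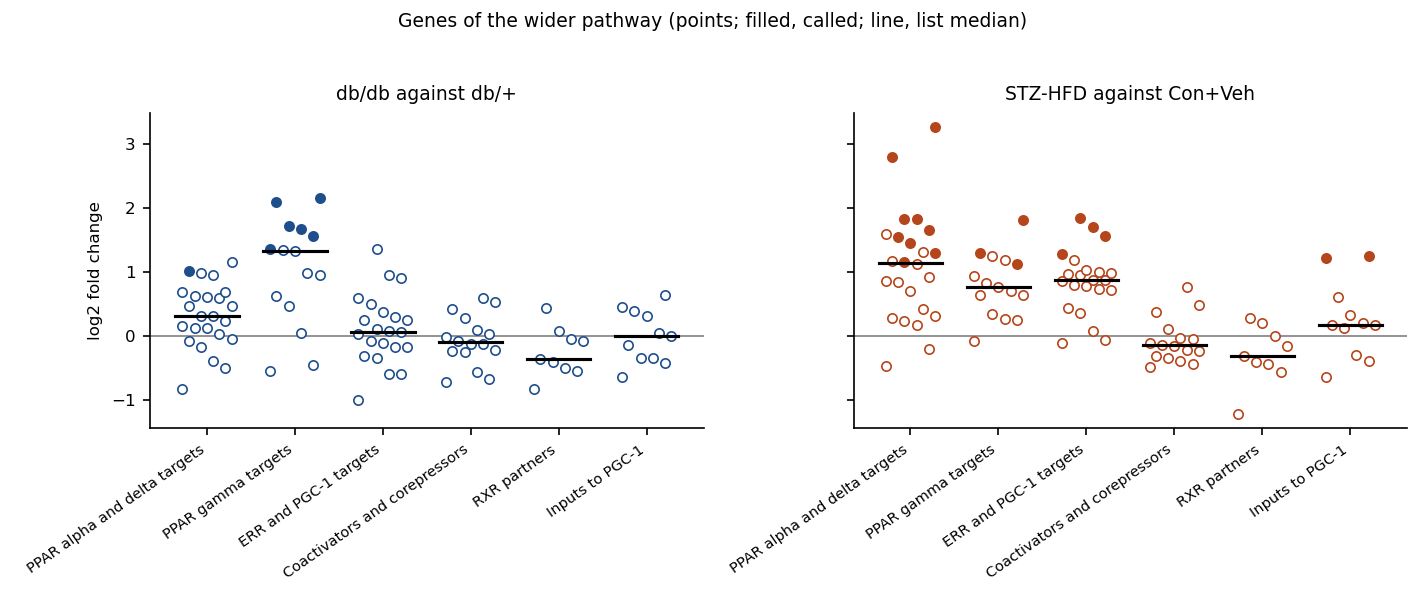
Log2 fold change (y axis) of every tested gene on the 6 pathway lists (x axis) in each model, with filled points for called genes and a line at the list median. The filled points are all above 0, with 6 on the PPARγ list in db/db and 9 on the PPARα and PPARδ list in STZ-HFD.

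Few genes of the other lists passed. Of 16 coactivators and corepressors tested, 0 were called in either model. *Lpin1*, a lipid phosphatase and PGC-1α partner, was at 72.6 ± 24.7 CPM in STZ-HFD against 49.0 ± 5.53 (log2 fold change 0.76, limma adjusted p = 0.0477), under the fold minimum. Of 9 RXR partners tested, 0 were called. The vitamin D receptor gene *Vdr* was at 6.16 ± 1.28 CPM in STZ-HFD against 13.7 ± 3.13 (log2 fold change -1.22, adjusted p = 0.0893), without overlap, the liver X receptor gene *Nr1h2* had a log2 fold change of -0.83 in db/db (adjusted p = 0.134), and the retinoic acid receptor gene *Rara* had -0.54 (db/db) and -0.56 (STZ-HFD). Of 11 kinases and factors that act on PGC-1, 2 rose in STZ-HFD, against 1.3% of all genes called higher. They were *Mapk12* (p38γ, a muscle kinase), from 21.7 ± 10.2 to 42.9 ± 18.1 CPM (log2 fold change 1.25, limma adjusted p = 0.032), and *Prkaa2* (the AMPK α2 subunit), from 29.7 ± 17.7 to 48.6 ± 19.8 CPM (1.23, adjusted p = 0.0263). In db/db 0 of the 11 were called, with *Ppp3ca*, a calcineurin subunit, at 0.64 and *Mef2d*, a muscle transcription factor, at -0.63.

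The muscle and fat markers moved in the same comparisons. In STZ-HFD, 5 of 13 skeletal muscle markers and 3 of 6 slow muscle markers were called higher and 0 lower. Of all genes, 1.3% were called higher there. The median log2 fold changes of these lists were 1.07 and 1.30. The slow muscle score, a mean of log2 CPM, was higher by 1.17 (exact permutation test, two-sided p = 0.0286, adjusted p = 0.19 over 10 lists). In db/db all 13 skeletal muscle markers were below 0 (median -0.96, 1 called lower, against 0.432% of all genes). There 4 of 8 adipocyte markers were called higher (median 1.51), against 1.23% of all genes. Adding the score of the 13 skeletal muscle markers to the fit left the *Esrrg* log2 fold change at 1.45 in STZ-HFD (limma adjusted p = 0.129). Adding the adipocyte score left it at 1.17 (limma adjusted p = 0.183). The slow muscle score was not put into a fit, so these fits do not adjust for slow muscle content. With the adipocyte score, the *Pparg* log2 fold change in db/db was 0.02. STZ-HFD replicate 1, with the lowest total count and a library weight of 0.379, was chosen for a closer look after its values were seen. Its skeletal muscle markers summed to 10394 CPM, within the Con+Veh range, and its slow muscle markers to 1095 CPM, above every Con+Veh library. In it *Esrrg*, *Esrrb*, *Ppara*, *Ppargc1a* and *Rxrg* were each above every Con+Veh library. *Esrra*, *Ppard*, *Ppargc1b* and *Rxra* were each below every one. Also in STZ-HFD, 5 of 8 cartilage and annulus markers were called lower (median -1.49), against 1.31% of all genes. With the adipocyte score in the fit, limma called 0 of the 61 targets in db/db and 5 in STZ-HFD, and with the skeletal muscle score 5 in each model. The adipocyte list shares 5 genes with the PPARγ targets. With its score, 1 of all genes was called in db/db, against 281 without it. The part of these markers in the regulators' values was not tested beyond these fits.

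**Figure D5:**
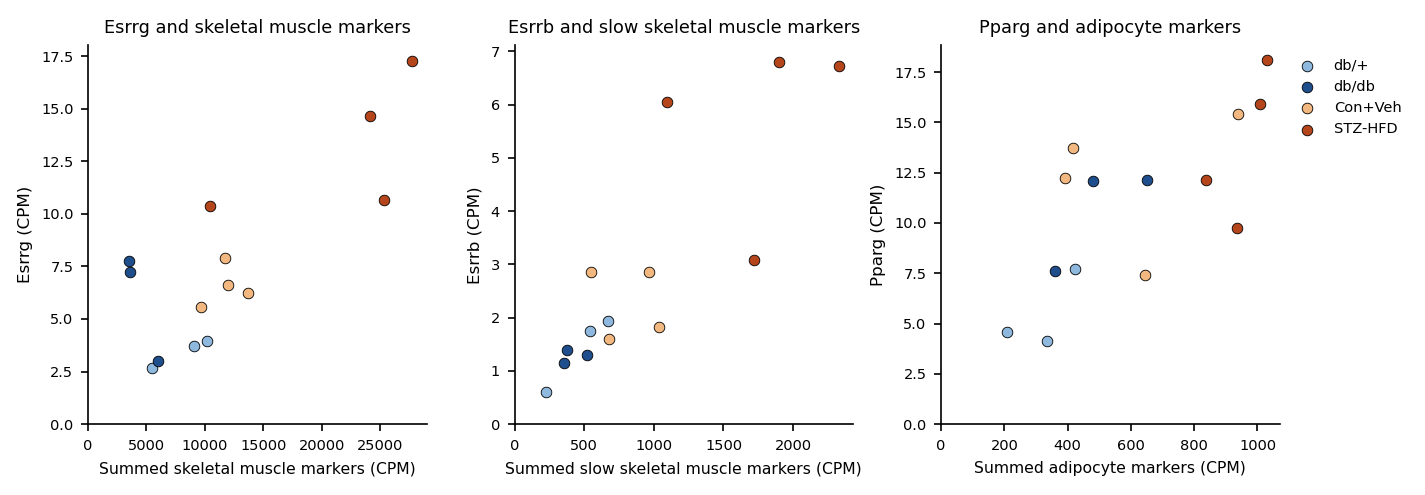
Level in CPM (y axes) of *Esrrg*, *Esrrb* and *Pparg* against the summed CPM (x axes) of skeletal muscle, slow skeletal muscle and adipocyte markers, with 1 point per library coloured by group and linear axes from 0. STZ-HFD replicate 1, the library of lowest total count, has 10394 CPM of skeletal muscle markers and 10.4 CPM of *Esrrg*, above all Con+Veh points. On the slow muscle axis all STZ-HFD points, from 1095 CPM, lie beyond all Con+Veh points, up to 1035 CPM. The 2 db/db libraries with the highest *Esrrg* have the lowest skeletal muscle sums. These libraries were picked after their values were seen, and the part of the markers in these levels was not tested by this plot.

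Within groups, the regulators did not vary as a block. Deviations of log2 CPM from the group means over the 14 libraries, which share depth and tissue make-up across genes, gave a Pearson r of 0.78 for *Esrra* with *Ppargc1b*, 0.76 for *Ppard* with *Rxra*, 0.71 for *Ppara* with *Rxrg* and -0.63 for *Ppargc1a* with *Rxra*. *Ppargc1a* had an r of 0.05 with *Ppargc1b* and -0.04 with *Esrra*. With the skeletal muscle score, *Esrra* (0.72) and *Ppargc1b* (0.60) had the highest r, while *Esrrg* and *Rxrg* were both at -0.03. With the slow muscle score the order differed, with *Esrrb* (0.56) and *Ppara* (0.50) highest, *Esrrg* at 0.30 and *Rxrg* at 0.19. With the adipocyte score, *Esrrb* (0.69), *Ppara* (0.52) and *Pparg* (0.52) had the highest. The genes whose deviations were most like those of *Esrrg* were *Nat14* (0.90), *Znrf1* (0.86) and *Abl2* (0.81). The closest to *Ppargc1a* were *4921513I03Rik* (0.94), *Ndufaf4* (0.88) and *Gm45290* (0.87), to *Ppara* *Ndufb9* (0.96), *Nxt1* (0.95) and *Scp2* (0.95), and to *Ppargc1b* *Casz1* (0.95), *Ston2* (0.92) and *Tacc2* (0.92). For *Rxra* they were *Nucb1*, *Gatad2a* and *Eng* (0.96 each), for *Ppard* *Klf13*, *Ttyh3* and *Ptprs* (0.91 to 0.92), for *Esrra* *Rhot1*, *Col20a1* and *Ppp4c* (0.93 to 0.94), for *Esrrb* *Slc16a12* (0.93), *Prdx6* (0.83) and *Ccnq* (0.82), for *Rxrg* *Macrod2os2*, *Rbbp9* and *Slc25a41* (0.90 to 0.92), and for *Pparg* *Fbxw2* (0.87), *Recql5os1* (0.85) and *Gm37644* (0.85).

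Across the 4 groups, the order of the mean levels was the same for *Pparg*, *Ppargc1a*, *Esrrg* and *Rxrg*, namely STZ-HFD, Con+Veh, db/db and db/+ from highest to lowest. Neighbours in that order were apart only between STZ-HFD and Con+Veh for *Esrrg* and between Con+Veh and db/db for *Ppargc1a*, and all other neighbours overlapped. *Ppara* and *Esrrb* were highest in STZ-HFD with no overlap with the next group. *Ppard* was highest in db/+, with no overlap with db/db. For *Ppargc1b*, *Esrra* and *Rxra* every pair of neighbouring groups overlapped.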

How the data were processed

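Libraries were grouped by their labels, and all 14 were used. The authors aligned reads with STAR 2.7.9a1 to Ensembl release 101 (GRCm38) and deposited gene counts from featureCounts 2.0.32, whole numbers without normalization, and estimated counts per transcript from Salmon 1.5.23 (versions as the submitters printed them). The strand setting is not given in the sources used here. Positions and lengths are from GENCODE M21. Repeated lines of the gene table (287 of 55774) were used once, and 0 sample columns were left unmapped.

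TMM factors (edgeR 4.0.16) and limma 3.58.1 voomWithQualityWeights in R 4.3.3 were used with all 14 libraries, a mean per group and Benjamini-Hochberg adjustment over 16915 genes. The count filter is not given in the published methods. Intervals of 95% use the moderated degrees of freedom of limma. Library weights ran from 0.275 to 3.05, both in Con+Veh. Transcripts, ratios and marker scores (mean log2 CPM, prior count 2) went into exact permutation tests, two-sided, which cannot go below 0.10 with 3 mice a group or 0.0286 with 4. Ratios used a pseudocount of 0.5. Transcript shares and summed estimates rest on the transcripts used here. These lack *Esrra*-201, *Esrrb*-201, *Esrrg*-201, *Ppard*-201, *Ppargc1a*-201, *Ppargc1b*-202 and *Rxra*-201. Among the absent ones, *Ppargc1a*-201 is annotated as subject to nonsense-mediated decay (270 codons). Transcripts of the same coding length as the absent one are present for *Esrrb* (433 codons) and *Rxra* (467 codons), and a longer one for *Ppargc1b* (1030 codons). The fit was tested on simulated counts with 200 changed genes.

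The members and lists were chosen with earlier results of these data known. Named genes were all 10 members, up to 4 called genes per list and model by absolute log2 fold change (otherwise the top 2), the 3 most abundant muscle and adipocyte markers, and the 3 genes most correlated with each member. Some genes that this rule picks are not reported here. The alternatives tried were DESeq2 1.42.0, the quasi-likelihood test of edgeR, voom without weights, RLE factors, other filters, separate models, a replicate block, removal of the GC trend over 20 bins, transcript sums rounded to whole numbers, no ribosomal RNA genes, marker covariates, no fold minimum, a prior count of 0.5 and leaving out libraries. The marker covariates were the skeletal muscle score, without the slow muscle list, and the adipocyte score.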

Additional observations from a re-analysis of the deposited data

How the results depend on the processing

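Leaving out each library in turn left 0 to 3 regulators called in STZ-HFD and 0 to 0 in db/db and in the difference between models. It left 21 to 392 genes (281 with all libraries) and 1 to 8 targets (7) in db/db, and 17 to 642 genes (441) and 2 to 22 targets (16) in STZ-HFD. *Esrrb* was called without STZ-HFD replicate 2 or db/+ replicate 3 (adjusted p = 0.0424, limma), and *Ppargc1a* without STZ-HFD replicate 2.

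The regulators called in STZ-HFD went from 1 to 0 with edgeR, DESeq2, unweighted voom, filterByExpr, no count filter, transcript sums, either marker covariate, and without the libraries whose names end in RIP (Con+Veh replicate 2 and STZ-HFD replicate 4). The call stood with RLE factors, the models fitted alone, the GC trend removed and ribosomal RNA genes left out. In db/db, genes called numbered 0 with edgeR, 9 unweighted, 534 unfiltered, 436 with the model alone, 127 with the GC trend removed, 144 from transcript sums, 185 with the muscle and 1 with the adipocyte covariate. In STZ-HFD they numbered 29 with edgeR, 272 with DESeq2, 19 unweighted, 217 with filterByExpr, 130 unfiltered, 287 with the model alone, 56 from transcript sums and 244 without the RIP libraries. Targets called in db/db numbered 0 with edgeR, unweighted and with the adipocyte covariate, and 2 from transcript sums. In STZ-HFD targets numbered 3 with edgeR, 2 unweighted, 8 unfiltered, 9 from transcript sums, 5 with either covariate, 10 without the RIP libraries and 25 without a fold minimum. The cause was not tested for any of these.

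Replicate numbers are shared between groups but did not pair the libraries, whose same-number deviations correlated at -0.280 to 0.192 in the db cohort and -0.260 to -0.042 in the other. With a replicate block, 1 regulator was called in db/db (*Ppargc1b*, log2 fold change -1.01, adjusted p = 0.00836, limma) and 0 in STZ-HFD. Genes numbered 1484 and 6, and targets 14 and 2, in db/db and STZ-HFD. With the block and the GC trend removed, genes numbered 983 and 2, targets 13 and 1, and regulators called in STZ-HFD 0.

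Signs that turned were those of values that had not passed. In db/db, *Ppara* went to -0.24 with transcript sums and -0.40 with the adipocyte covariate, *Ppargc1a* to -0.074 with the GC trend removed and -0.11 with transcript sums, *Esrra* to 0.31 with the muscle and 0.30 with the adipocyte covariate, and *Rxrg* to -0.10 with the adipocyte covariate. There *Esrrb* went to 0.066 unweighted, 0.0092 with RLE factors, 0.0025 with filterByExpr, 0.0013 unfiltered, 0.032 with the model alone, 0.048 with the block and GC removal, 0.26 with the GC trend removed, 0.016 without ribosomal RNA genes and 0.63 with the muscle covariate. In STZ-HFD, *Pparg* went to -0.17 with the adipocyte covariate and *Rxra* to 4.24 with transcript sums, which lack *Rxra*-201. In the difference between models, *Ppara* went to -0.76 and *Esrra* to -0.29 with the muscle covariate, *Ppard* to -0.0066 with the GC trend removed, -0.093 with the adipocyte covariate and -0.067 without the RIP libraries, and *Rxrg* to -0.21 with the block, -0.43 with the block and GC removal, -0.10 with the GC trend removed and -0.16 with the muscle covariate. With a library left out, *Ppara* ranged from -0.094 to 0.53, *Ppargc1a* from -0.062 to 0.54, *Esrra* from -0.43 to 0.046 and *Esrrb* from -0.53 to 0.41 in db/db. In the difference between models, *Ppard* ranged from -0.20 to 0.52 and *Rxrg* from -0.076 to 0.55. Marker scores whose sign turned were slow muscle (-0.56 to 0.26), erythroid (-0.043 to 0.38) and keratinocyte (-0.22 to 0.18) in db/db, and notochord (-0.19 to 0.50), osteoblast (-0.48 to 0.12), endothelium (-0.32 to 0.30) and keratinocyte (-0.68 to 0.56) in STZ-HFD.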

Other observations

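Markers of further cell types were also measured. In STZ-HFD, 2 of 6 macrophage markers and 1 of 5 osteoblast markers were called lower by limma, against 1.31% of all genes. In db/db 1 of 4 endothelial markers was called higher, against 1.23% of all genes. Of the nucleus pulposus and notochord markers 5 of 7 were tested, of the erythroid markers 5 of 5 and of the keratinocyte markers 1 of 5. Limma called 0 of these in either model. In db/db 1 notochord marker (lower) and 1 erythroid marker (higher) were at an unadjusted p under 0.05, against 21.1% of all genes. Among the regulators, *Esrrg* had its most negative r within groups with the macrophage score (-0.62) and *Ppargc1a* with the cartilage and annulus score (-0.61), over 14 libraries that share depth and tissue make-up.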
